A study of Mus musculus with 18 samples.

Results

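Long protein-coding genes were examined in ChIP-seq peak lists of the histone demethylase KDM2A and of dimethylated lysine 36 of histone H3 (H3K36me2). A gene was a member when its end minus its start exceeded 200 kb in GENCODE M21 on GRCm38, and 998 of 21938 protein-coding genes met this rule. The measured region was the gene body, from 5 kb downstream of the transcription start site (TSS) to the gene end. The promoter at the annotated gene start thus did not enter, but other annotated TSS farther in did. Of the bodies, 24.7 Mb lay within 2 kb of an annotated TSS. The rule used length alone and no ChIP-seq value. The bodies had a median gene length of 327 kb and together covered 422 Mb, 15.9% of the known bases of the genome. There were 45 members on chromosome X and 0 on Y, and 36 members overlapped another member, such as Gse1 inside Gm20388, Filip1l and Cmss1, Foxp1 and Gm20696, and the nested Pcdha models.

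The cells were splenic B cells of C57BL/6 mice, either Mir155-sufficient (WT) or Mir155-deficient (KO), left untouched by a depletion of cells bearing CD43, CD4 or Ter119. All were cultured for 2 days at 1% O2 and 5% CO2 with anti-CD40 at 1 µg/ml, F(ab')2 anti-IgM at 5 µg/ml and interleukin 4 at 4 ng/ml, so the WT and KO groups shared stimulation and low oxygen and no culture at normal oxygen entered. Each genotype had 3 lists per antibody, 12 lists in all, of 18 samples with the inputs included. Replicate 1 was male and replicates 2 and 3 were female in every group, so sex and replicate number cannot be told apart, and where the labels do not name separate animals the p-values measure the spread between these lists only. The H3K36me2 lists held 37447 to 106720 peaks and the KDM2A lists 15387 to 29105. KO H3K36me2 replicates 2 and 3, with the fewest H3K36me2 peaks, stood apart from KO replicate 1, which had the most. No RNA was measured, so the labelled cell type could be checked at chromatin only. KDM2A had a peak within 2 kb of the TSS of 10 of 10 B cell markers in at least 1 list, of 3 of 6 T cell markers, of 1 of 5 myeloid markers, of 1 of 3 erythroid markers and of 3 of 3 plasma cell markers. H3K36me2 did not separate them, with a peak inside the gene in at least 1 list in 9 of 10 B cell, 5 of 6 T cell and 4 of 5 myeloid markers.

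H3K36me2 is laid down by the NSD and ASH1L methyltransferases over gene bodies and between genes, and SETD2 converts it to trimethylation in transcribed genes. KDM2A takes methyl groups off H3K36me2 and reaches chromatin through a CXXC zinc finger that binds unmethylated CpG, which is why it gathers at CpG islands. Genes longer than most include cell adhesion molecules, receptors and channels of neurons, and also regulators of lymphocyte development. Their bodies consist almost wholly of introns and hold few CpG islands, here 565 island centres, so they are a place to see both signals mostly away from promoters.

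The 6 sequences below are the KDM2A sites inside long gene bodies that were called in all 6 KDM2A lists with the highest mean fold, 3 at a CpG island and 3 away from islands. Fold is the authors' enrichment of a peak over its local control. Each line gives the 200 bases (GRCm38.p6, plus strand, 5′ to 3′) at the centre of the part shared by the strongest peak of every list. Capitals mark the dinucleotide CG, which reads the same on both strands. Of all windows of 200 bases tiled over the long bodies, 69.6% held at least 1 CG, and the median window held 1.
Cdt1 site: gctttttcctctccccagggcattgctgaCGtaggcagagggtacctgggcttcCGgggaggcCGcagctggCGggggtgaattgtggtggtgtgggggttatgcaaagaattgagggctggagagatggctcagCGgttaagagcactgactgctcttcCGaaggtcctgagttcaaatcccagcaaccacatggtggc
Cyba site: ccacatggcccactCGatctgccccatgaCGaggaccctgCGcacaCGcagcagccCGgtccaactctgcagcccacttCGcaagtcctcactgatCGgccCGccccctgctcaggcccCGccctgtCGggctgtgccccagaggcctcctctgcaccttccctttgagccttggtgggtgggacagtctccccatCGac
Afg3l1 site: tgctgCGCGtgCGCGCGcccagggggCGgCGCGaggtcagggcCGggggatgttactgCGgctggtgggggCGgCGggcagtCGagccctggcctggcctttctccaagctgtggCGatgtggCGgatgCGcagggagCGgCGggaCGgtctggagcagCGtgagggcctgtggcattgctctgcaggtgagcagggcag
Gm20388 island-free site: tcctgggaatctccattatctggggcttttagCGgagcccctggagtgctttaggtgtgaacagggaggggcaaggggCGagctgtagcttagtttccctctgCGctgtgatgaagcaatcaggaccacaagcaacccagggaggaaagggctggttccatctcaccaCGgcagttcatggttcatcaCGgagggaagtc
Fgfr2 island-free site: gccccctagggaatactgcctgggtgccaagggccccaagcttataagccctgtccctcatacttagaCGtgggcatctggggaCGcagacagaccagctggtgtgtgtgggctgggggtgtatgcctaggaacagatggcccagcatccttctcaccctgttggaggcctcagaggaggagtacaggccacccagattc
Pebp4 island-free site: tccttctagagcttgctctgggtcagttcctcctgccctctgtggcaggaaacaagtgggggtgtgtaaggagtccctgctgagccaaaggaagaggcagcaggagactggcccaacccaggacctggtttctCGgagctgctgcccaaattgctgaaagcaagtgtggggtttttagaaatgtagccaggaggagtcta

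The first 3 sites lay inside the model Gm20388 on chromosome 8 but at starts of other genes. The Cdt1 site (chr8:122566746-122573207) was centred 457 bases from a TSS of Cdt1, a DNA replication licensing factor, and its window held 6 CG, a number reached by 2.92% of the tiled windows. The Cyba site (chr8:122427049-122435569) was centred 11 bases from a TSS of Cyba, a subunit of the phagocyte NADPH oxidase, with 11 CG (0.339% of windows hold as many). The Afg3l1 site (chr8:123477004-123479247) was centred 21 bases from a TSS of Afg3l1, of a family of mitochondrial proteases, with 20 CG (0.0399%). Their mean fold was 3.40 ± 0.0775 for WT and 3.69 ± 0.28 for KO at Cdt1, 3.58 ± 0.608 and 3.42 ± 0.237 at Cyba, and 3.53 ± 0.591 and 3.44 ± 0.926 at Afg3l1 (SD of 3 lists). WT and KO folds overlapped at all 3 sites.

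The sites away from islands were intronic in the long model that held them. The Gm20388 site (chr8:120701588-120706593) was 15614 bases from the nearest TSS and its window held 5 CG, a number reached by 5.47% of windows. The Fgfr2 site (chr7:132718332-132722132) was 56120 bases from the nearest TSS, that of Fam53b, with 2 CG (39.8% of windows). The Pebp4 site (chr14:70054730-70059407) was centred 77 bases from a TSS of Gm33524 at the far end of the Pebp4 model, with 1 CG (69.6% of windows). The Fgfr2 and Pebp4 windows thus held as few CG as many stretches of these bodies, although KDM2A was listed there in every library. The fold was 3.91 ± 1.08 in WT and 3.00 ± 0.261 in KO at the Gm20388 site, 3.62 ± 0.261 and 3.01 ± 0.285 at the Fgfr2 site, and 3.19 ± 0.356 and 3.21 ± 0.868 at the Pebp4 site. At the Fgfr2 site the WT folds of 3.43, 3.92 and 3.52 lay above the KO folds of 3.11, 3.23 and 2.69.

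Peaks covered less of long bodies than of mid-length bodies, those of the 4009 genes over 50 kb and up to 200 kb. H3K36me2 peaks covered 3.40, 4.76 and 4.61% of the long bodies in WT replicates 1, 2 and 3 and 2.99, 1.42 and 1.21% in KO. The same lists covered 6.08, 7.93 and 7.72% of the mid-length bodies in WT and 5.25, 2.07 and 1.82% in KO. The difference of long minus mid-length was -2.08 ± 1.17 percentage points (SD, n = 6 lists) and negative in 6 of 6 lists (two-sided exact sign-flip test, p = 0.03125, the smallest that 6 lists allow, adjusted p = 0.0357 over 8 relations). KDM2A peaks covered 0.339, 0.186 and 0.245% of the long bodies in WT and 0.113, 0.106 and 0.192% in KO, and the difference from mid-length bodies was -0.453 ± 0.204 percentage points, again in 6 of 6 lists (exact sign-flip test, p = 0.03125, adjusted p = 0.0357). Long bodies therefore lay below mid-length bodies in each list for both antibodies. With any 1 list left out the direction held for both, at p = 0.0625 (exact sign-flip test), the smallest that 5 lists allow, so that this and every other call over 6 lists needs all of them. For H3K36me2 the difference was -1.07 points as a mean over genes, -1.10 with equal numbers of peaks and -0.0841 with a fold of at least 3, and for KDM2A it was -0.3003 with equal numbers of peaks and -0.0803 with a fold of at least 3.

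**Figure D1:**
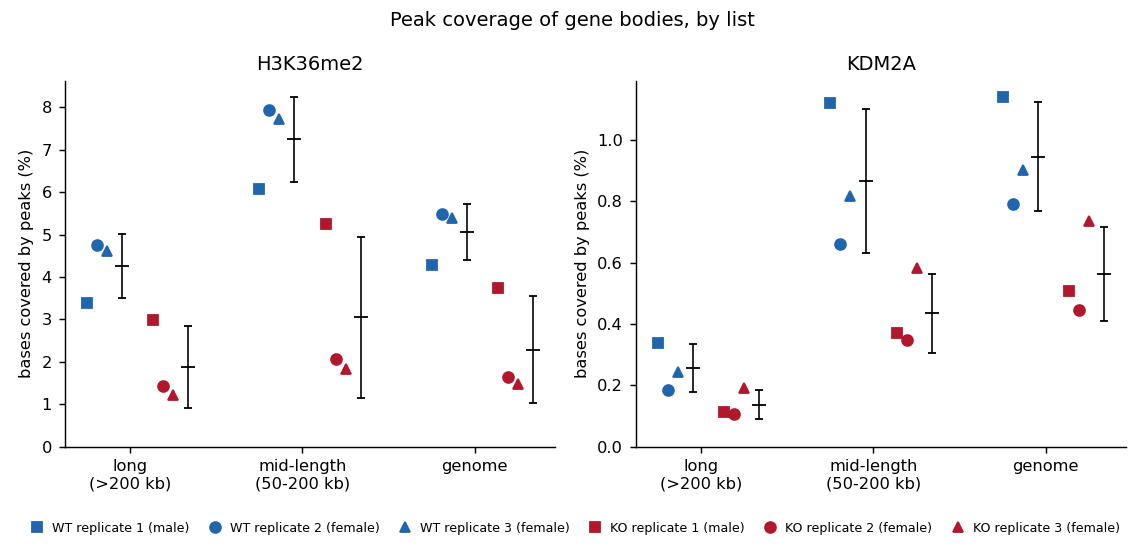
Percent of bases covered by peaks (y axis) in long gene bodies, in mid-length gene bodies and in the whole genome (x axis), for H3K36me2 (left) and KDM2A (right). Each symbol is 1 list, blue for WT and red for KO, and the black bars give the mean and SD of 3 lists; WT H3K36me2 lists covered 3.40 to 4.76% of the long bodies and KO lists 1.21 to 2.99%.

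The peaks themselves were also smaller in long bodies. The median H3K36me2 peak of a list was narrower in long bodies than elsewhere, with a difference of -58.6 ± 10.9 bp, and so was the median KDM2A peak, with -176 ± 27.3 bp, both in 6 of 6 lists (exact sign-flip test, p = 0.03125, adjusted p = 0.0357 each). The median width in long bodies ran from 619 to 968 bp for H3K36me2 and from 425.5 to 512.5 bp for KDM2A. The median fold in long bodies was also lower, with a difference of -0.0160 ± 0.00234 for H3K36me2 and -0.0938 ± 0.0116 for KDM2A, in 6 of 6 lists (exact sign-flip test, p = 0.03125, adjusted p = 0.0357 each), a small step beside median folds of 2.47 to 2.80. Long bodies held 14.3 to 15.7% of the peaks of an H3K36me2 list but 4.74 to 6.76% of those of a KDM2A list.

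The comparison of genotypes asked whether loss of miR-155, a microRNA induced in activated B cells, went with a different extent of H3K36me2 and KDM2A in these bodies. The mean H3K36me2 coverage of the long bodies was 4.26% ± 0.748 for WT and 1.88% ± 0.973 for KO (SD of 3 lists). All KO lists lay below all WT lists, and the two-sided exact permutation test gave p = 0.1, the smallest that 3 against 3 lists allow (adjusted p = 0.4 over 16 measures). The KO replicate 1 list, at 2.99%, lay close to the male WT list at 3.40%, a difference of -0.401 points, whereas any female KO list differed from any female WT list by -3.54 to -3.19 points. The whole genome moved with the long bodies. Divided by the genome-wide covered percent of the same list, the long bodies stood at 0.837 ± 0.0411 in WT and 0.829 ± 0.0358 in KO (exact permutation test, p = 1, n = 3 each). With only peaks of fold 3 or more, KO minus WT was 0.0873 points with a pooled SD of 0.139 (exact permutation test, p = 0.7), so no increase was shown.

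KDM2A covered 0.257% ± 0.0774 of the long bodies in WT and 0.137% ± 0.0478 in KO, and the groups overlapped, since KO replicate 3 at 0.192% exceeded WT replicate 2 at 0.186% (exact permutation test, p = 0.2, adjusted p = 0.4, n = 3 each). The difference of -0.120 points was -0.0784 without WT replicate 1, -0.0245 with a fold of at least 3 and -0.0143 with equal numbers of peaks. Relative to the genome the values were 0.268 ± 0.0318 and 0.240 ± 0.0195 (exact permutation test, p = 0.3, n = 3 each), a difference of -0.0274 that was -0.0125 without WT replicate 1 and -0.0441 without WT replicate 2. H3K36me2 peaks numbered 32.6 ± 2.74 per Mb of long body in WT and 21.7 ± 12.8 in KO (exact permutation test, p = 0.4, n = 3 each). The difference of -10.9 was -18.3 without KO replicate 1 and -6.75 without KO replicate 2. KDM2A peaks numbered 3.81 ± 0.922 and 2.26 ± 0.745 per Mb (exact permutation test, p = 0.2, n = 3 each). With equal numbers of peaks the sign turned, to 0.144 more per Mb in KO for H3K36me2, 0.141 more for KDM2A, and 0.0294 for KDM2A coverage relative to the genome (exact permutation tests, p = 0.8, 0.2 and 0.1). The depth of the libraries is unknown, and its part in these differences was not tested.

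Single members were then compared by the covered percent of the body, on the scale log2(percent + 1) for H3K36me2 and log2(percent + 0.2) for KDM2A, with limma on all genes longer than 10 kb that had a peak in any list. Of the 998 members, 686 passed this filter for H3K36me2 and 820 for KDM2A. None of the 686 passed an adjusted p of 0.05, beside 0.0116% of all 8646 bodies tested, and 97 members had an unadjusted p under 0.05, all lower in KO. None of the 820 passed for KDM2A, beside 0.0% of 8113 bodies, and 0 members had an unadjusted p under 0.05, which became 23 without WT replicate 2, 6 without WT replicate 3, 5 without WT replicate 1 and 2 without KO replicate 3, and stayed 0 without KO replicate 1 or 2. On values divided by the genome-wide percent, limma called 0 members for either antibody, beside 0.0% of all bodies, also with 0 members at an unadjusted p under 0.05. On these divided values the 0 became 56 for H3K36me2 without KO replicate 1, and for KDM2A 14 without WT replicate 2, 4 without WT replicate 1 and 3 without WT replicate 3, and it stayed 0 without any other single list. The counts thus changed with the lists that entered. Without KO replicate 1 the fit on undivided values called 209 of 645 members lower in KO, beside 29.1% of all bodies, and the fit on divided values called 0 members, beside 2.25% of all bodies. The 97 members at an unadjusted p under 0.05 became 290 without KO replicate 1, 32 without WT replicate 1, 1 without WT replicate 2 and likewise without WT replicate 3, 7 without KO replicate 2 and 3 without KO replicate 3. When changes of known size were put into simulated H3K36me2 values, a log2 change of 4 was found in 55.5% of the altered bodies and one of 2 in 0%. In those data few changes short of the largest could be called. The values were drawn independently for each body and without a floor at 0% coverage, so these rates need not hold for the measured lists.

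Every KO list lay below every WT list in 269 members for H3K36me2, 39.2% of those with a peak, beside 24.7% of all bodies tested and 32.8% of mid-length bodies with a peak. Every KO list lay above every WT list in 0 members, beside 0.0578% of all bodies. For KDM2A the counts were 81 members lower (9.88% of those with a peak, beside 10.6% of all bodies) and 6 higher (0.732%, beside 0.382%). Relative to the genome-wide percent, 44 members lay lower for H3K36me2 (6.41%, beside 7.58%) and 14 higher (2.04%, beside 1.24%). The corresponding numbers for KDM2A were 43 lower (5.24%, beside 5.37%) and 13 higher (1.59%, beside 1.43%). The excess of lower members over the background for H3K36me2 was thus present in the covered percent and was not seen once each list was set against its own genome.

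Members differed far more from each other than WT differed from KO. No H3K36me2 peak lay in 312 of the 998 bodies in any list, 252 had one in 1 to 5 lists and 434 had one in all 6. The median body was 0.376% covered in WT and 0.168% in KO, the upper quartile began at 8.23 and 3.52%, and the most covered body reached 54.2 and 27.8%. The 100 bodies with the most covered bases held 53.8% of all covered bases of long genes in WT and 56.1% in KO. The order of the bodies was nearly the same in every list, with Spearman's rank correlation over the 998 members of 0.953 to 0.962 between WT lists, 0.887 to 0.924 between KO lists and 0.905 to 0.948 between genotypes. These are descriptions over genes that share libraries. For KDM2A the same correlation lay between 0.434 and 0.564.

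The most covered body was that of Rad51b (chr12:79297282-79814690), a gene of DNA repair by homologous recombination. H3K36me2 peaks lay over 49.0, 57.5 and 56.0% of it in the WT lists and over 33.5, 18.3 and 19.5% in the KO lists, with no overlap of the genotypes (limma log2 change -1.20, SE 0.428, adjusted p = 0.269). Filip1l, which encodes a filamin A interacting protein, had 45.6, 52.6 and 58.2% in WT and 34.3, 22.6 and 26.4% in KO. Tbxas1, the thromboxane A synthase gene, had 46.4, 53.8 and 53.6% in WT and 35.1, 16.6 and 21.3% in KO. In all 3 genes KO replicate 1 lay between the other KO lists and the WT lists. Maml3, a coactivator of Notch signalling, had 39.7, 51.8 and 48.5% in WT and 35.3, 15.7 and 13.7% in KO. Lpp, a LIM domain protein of focal adhesions, had 34.7, 47.1 and 40.1% in WT and 24.98, 14.1 and 14.8% in KO. The other members among the 8 highest were Gm20696, Cmss1 and Fam107b, with WT means of 47.2, 43.9 and 42.7%. Since Gm20696 overlaps Foxp1 and Cmss1 overlaps Filip1l, these are not separate stretches of the genome.

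The widest merged H3K36me2 intervals that held a peak of each of the 6 lists lay in Rad51b, in Filip1l with Cmss1, and in Hivep3. They are unions of peaks, and no list had a peak of such width. The widest single peak centred in a long body was 46626 bp in WT replicate 1 and 7266 bp in KO replicate 3. After the 6 lists were merged, an interval of 149799 bp (chr12:79716940-79866738) ran over the 3′ part of Rad51b and past its end, the second had 104159 bp (chr16:57417523-57521681), and the third, in the zinc finger gene Hivep3, had 103745 bp (chr4:119930813-120034557). The strongest peak of a list in the Rad51b interval had a fold of 2.97 ± 0.0682 in WT and 3.21 ± 0.110 in KO, so the fold was not lower in KO where the covered percent was.

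**Figure D2:**
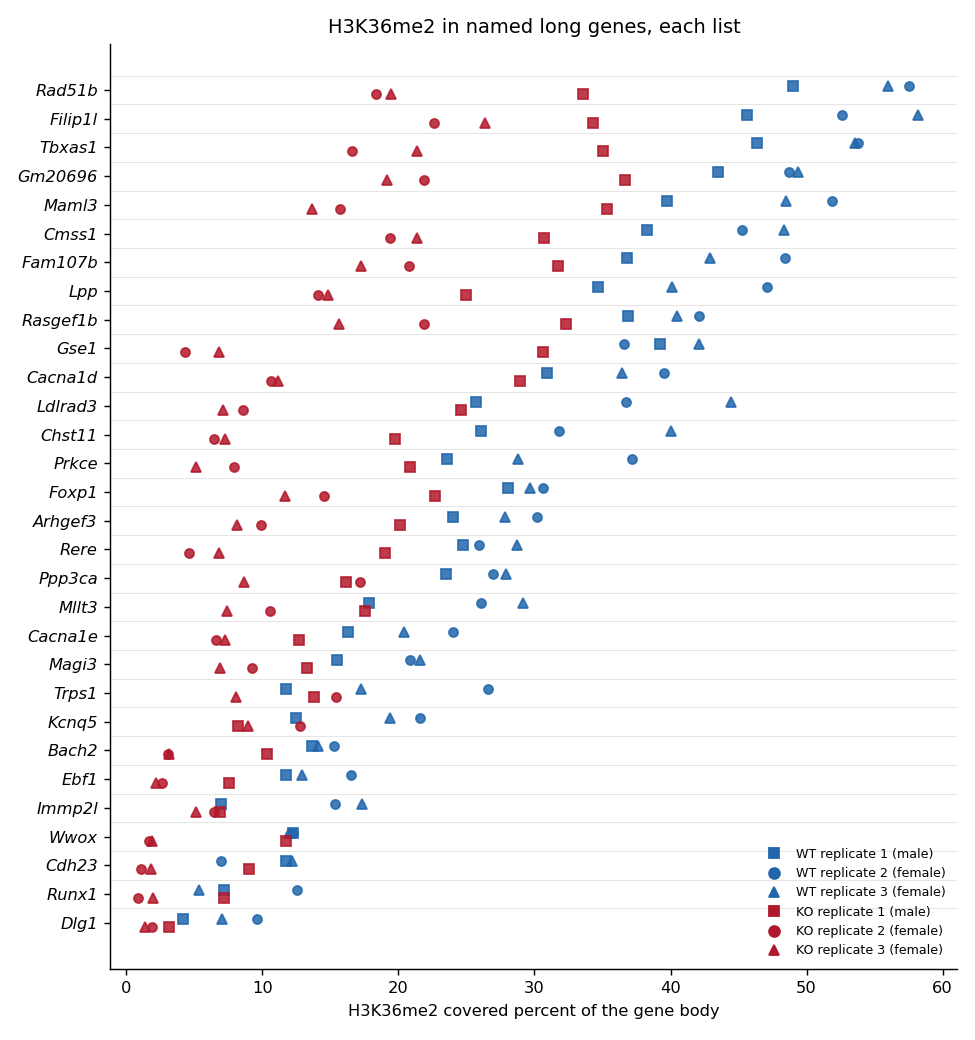
H3K36me2 covered percent of the gene body (x axis) in each of 6 lists for named long genes (y axis, ordered by the WT mean). Blue symbols are WT lists, red symbols KO lists, and squares mark replicate 1; in Rad51b the WT lists reached 49.0 to 57.5% and the KO lists 18.3 to 33.5%.

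The 8 largest differences with separate genotypes were Rad51b, Tbxas1, Gse1, Maml3, Filip1l, Lpp, Ldlrad3 and Chst11, from -30.4 to -21.5 percentage points. Gse1, whose product is found with the CoREST histone deacetylase complex, had 39.3, 36.6 and 42.1% in WT and 30.6, 4.32 and 6.80% in KO (limma log2 change -1.88, SE 0.680, adjusted p = 0.269). Ldlrad3, a membrane protein with LDL receptor domains, had 25.7, 36.7 and 44.4% in WT and 24.6, 8.60 and 7.14% in KO. Chst11, a chondroitin sulfotransferase, had 26.1, 31.8 and 40.1% in WT and 19.8, 6.45 and 7.25% in KO. In Gse1, Ldlrad3 and Chst11 the female KO lists were at less than 9% while KO replicate 1 was at 19.8% or more. No member qualified as a largest increase, because in none did every KO list exceed every WT list.

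The gap between KO lists followed the base composition of the bodies. Among the 438 members with over 1% H3K36me2 coverage in WT, a choice that by itself favours KO values below the WT mean, the median ratio to the WT mean was highest in KO replicate 1, at 0.688, with 0.277 and 0.251 in KO replicates 2 and 3. Spearman's rank correlation of this ratio with the GC percent of the body was 0.445, -0.614 and -0.534 in the same order, a description over genes that share libraries. In the third of these members with the highest GC, 44.3 to 54.4%, the lists covered 12.1, 14.6 and 14.6% in WT and 10.6, 3.07 and 2.96% in KO. In the third with the lowest GC, 36.2 to 41.1%, they covered 6.74, 11.5 and 10.7% in WT and 5.93, 4.69 and 3.48% in KO. All WT lists and KO replicate 1 covered less of the GC-poor than of the GC-rich members, and KO replicates 2 and 3 covered more of the GC-poor. The part of base composition in the genotype differences was not tested.

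H3K36me2 was higher in the first 50 kb of the body than in the rest. The first 50 kb of the body were 4.48% ± 2.15 covered and the rest 2.88% ± 1.43 (SD, n = 6 lists), a difference of 1.60 ± 0.725 points that was positive in 6 of 6 lists (exact sign-flip test, p = 0.03125, adjusted p = 0.0357 over 8 relations). The difference was 0.642 points as a mean over genes, 0.874 for genes longer than 300 kb, 0.913 with equal numbers of peaks and 0.0559 with a fold of at least 3, so its size rested on these choices. From 5 to 25 kb downstream of the TSS the lists covered 5.17, 6.95 and 6.76% in WT and 4.41, 2.09 and 1.75% in KO. From 55 to 105 kb they covered 5.04, 6.81 and 6.60% in WT and 4.16, 2.20 and 1.78% in KO, close to the first bin, with KO replicates 2 and 3 slightly above it. From 205 to 405 kb, where 968 members still had sequence, they covered 3.22, 4.59 and 4.43% in WT and 2.89, 1.36 and 1.19% in KO. Only 348 members reached beyond 405 kb, so the far bins hold fewer genes and longer ones. KDM2A showed 0.198% ± 0.0801 in the first 50 kb and 0.197% ± 0.0883 in the rest (exact sign-flip test, p = 0.781, n = 6 lists), and the sign of this difference of 0.00163 points turned with several settings. Without the 36 overlapping members, Gm20388 among them, it was 0.0522 points, and with peaks of fold 3 or more it was -0.0162 points (exact sign-flip test, p = 0.03125 each).

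**Figure D3:**
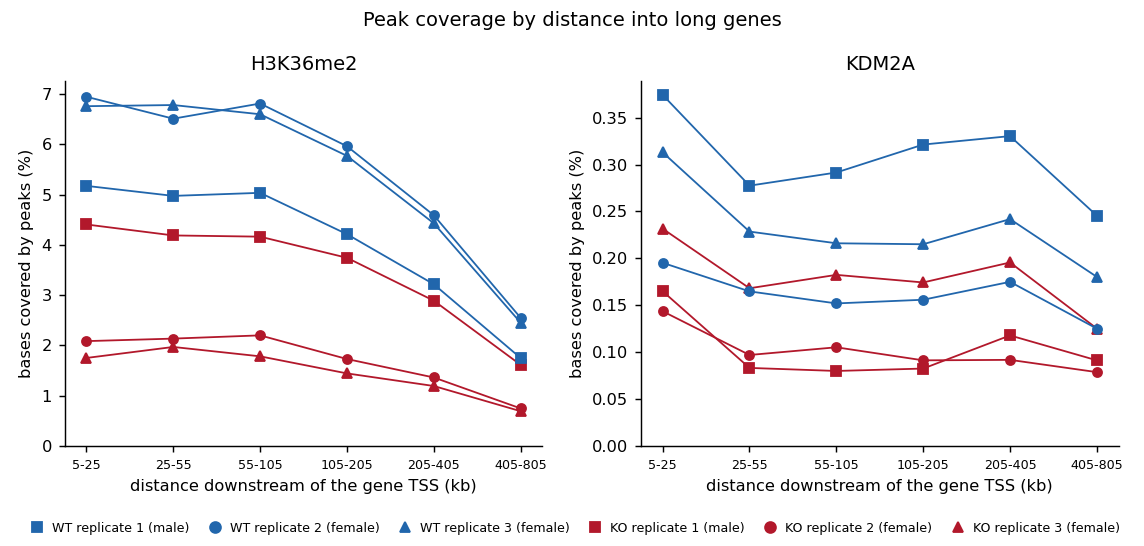
Percent of bases covered by peaks (y axis) at increasing distance downstream of the TSS of long genes (x axis, kb, unequal bins), for H3K36me2 (left) and KDM2A (right). Each line is 1 list, blue for WT and red for KO, and genes that end before a bin do not enter it; H3K36me2 in WT replicate 2 was 6.95% at 5 to 25 kb and 2.55% at 405 to 805 kb.

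Longer members had less H3K36me2. Members of 200 to 300 kb were 7.27% ± 1.25 covered for WT and 3.16% ± 1.81 for KO, and those of 300 to 500 kb 5.31% ± 0.919 and 2.33% ± 1.19 (SD of 3 lists). Those of 500 to 1000 kb were 2.80% ± 0.553 and 1.31% ± 0.451 covered, and the 59 beyond 1000 kb 1.498% ± 0.170 and 0.663% ± 0.430. Without Gm20388 the last class was at 0.911% ± 0.162 and 0.433% ± 0.209. The order of these classes was the same in every list. At the threshold of the rule, Pcbp3 (200.03 kb) and Plcxd3 (200.062 kb) were just inside, with 7.64% ± 2.91 and 0% in WT, and Atp9b (199.919 kb) and Morc1 (199.663 kb) just outside, with 0.809% ± 0.267 and 0.0450% ± 0.0780. Of the 5 longest members, Ptprd, a receptor tyrosine phosphatase, and Dmd, the dystrophin gene, were at 0% in all 6 lists, and Cntnap2, a neuronal adhesion gene, had at most 0.0720% in any list. Fgfr2 (2961 kb as modelled) had 8.63% ± 0.709 in WT and 3.97% ± 2.51 in KO, and Gm20388 (4435 kb), whose model spans many shorter genes, had 11.95% ± 0.348 and 4.77% ± 4.43. The last pair are gene models that cover neighbouring genes, so their values are not those of a single transcription unit.

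Members with a CpG island within 2 kb of their TSS, 732 of 998, had more H3K36me2 in the body, with a difference of 1.52 ± 0.813 points, in 6 of 6 lists (exact sign-flip test, p = 0.03125, adjusted p = 0.03125 over 6 relations). They were 4.88% ± 0.844 covered in WT and 2.14% ± 1.15 in KO, against 2.73% ± 0.509 and 1.24% ± 0.530 for the others (n = 3 each). An island stood at the TSS of 82.5% of the members with H3K36me2 in all 6 lists and of 63.8% of those with none. Within the bodies, exons carried less H3K36me2 than introns, with a difference of -0.762 ± 0.318 points in 6 of 6 lists (exact sign-flip test, p = 0.03125, adjusted p = 0.03125), and sequence within 2 kb of any annotated TSS carried 1.16 ± 0.635 points more than the remainder, in 6 of 6 lists (exact sign-flip test, p = 0.03125, adjusted p = 0.03125).

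KDM2A covered more of the promoters and islands inside the long bodies than of their remaining sequence, although 72.7 to 81.9% of a list's peaks there lay over 2 kb from any annotated TSS and 7.62 to 16.6% overlapped an island. Its peaks covered 25.8% ± 1.56 of the island bases there in WT and 21.5% ± 3.00 in KO, and the same bases were 2.76% ± 0.760 and 0.812% ± 1.16 covered by H3K36me2 (n = 3 each). Within 2 kb of an annotated TSS KDM2A covered 1.17% ± 0.260 in WT and 0.763% ± 0.193 in KO, 5.40 to 9.81 times the value of the remaining bases in a list, higher in 6 of 6 lists (exact sign-flip test, p = 0.03125, adjusted p = 0.03125). Exons exceeded introns 2.00 to 2.55 times in 6 of 6 lists (exact sign-flip test, p = 0.03125, adjusted p = 0.03125). Members with an island at their TSS exceeded the others by 0.119 ± 0.0583 points in 6 of 6 lists (exact sign-flip test, p = 0.03125, adjusted p = 0.03125). Gm20388 weighed on these values. Outside it the TSS ratio was 3.83 to 6.99, and the difference by island was 0.0545 points, positive in 6 lists. Merged over the 6 lists, KDM2A peaks formed 5920 intervals centred in long bodies. Of these, 5176 (87.4%) were called in 1 list and 91 (1.54%) in all 6. Elsewhere in the genome, promoters included, 8.32% were called in all 6. Of the 91, 73 were within 2 kb of a TSS and 67 at a CpG island, and 15 were at neither, whereas 10.7% of the intervals called in 1 list were within 2 kb of a TSS and 1.10% at an island. For H3K36me2, 1011 of 30768 intervals (3.29%) were called in all 6 lists and 76 of these lay within 2 kb of a TSS.

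The member with the most KDM2A was Gse1 (chr8:120228456-120581390), with 14.0, 9.30 and 12.6% in WT and 6.96, 4.86 and 6.10% in KO (limma log2 change -0.97, SE 0.564, adjusted p = 0.544). Pebp4, a phosphatidylethanolamine-binding protein gene with no island at its TSS, had 7.54, 4.33 and 3.79% in WT and 1.44, 0.592 and 2.41% in KO. Bach2, a transcriptional repressor that holds B cells from plasma cell fate, had 6.38, 4.28 and 4.14% in WT and 1.72, 1.11 and 3.29% in KO. In these 3 genes and in Gm20388, the 4 largest decreases by the rule, the genotypes did not overlap and limma passed no gene. Zmiz1, a coactivator of Notch1, had 5.21, 3.53 and 6.76% in WT and 2.53, 1.15 and 4.33% in KO, with KO replicate 3 above WT replicate 2. Hivep3 had 5.03, 3.69 and 4.16% in WT and 1.81, 1.27 and 3.14% in KO. The largest increases were small. Apbb2, an adaptor of the amyloid precursor protein, had 0% in every WT list and 0.0993, 0.233 and 0.117% in KO. Schip1 was also at 0% in every WT list and had 0.0465, 0.0415 and 0.102% in KO. Btbd3 and Skint6 differed by 0.116 and 0.0664 points. In each of these genes every KO list lay above every WT list.

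**Figure D4:**
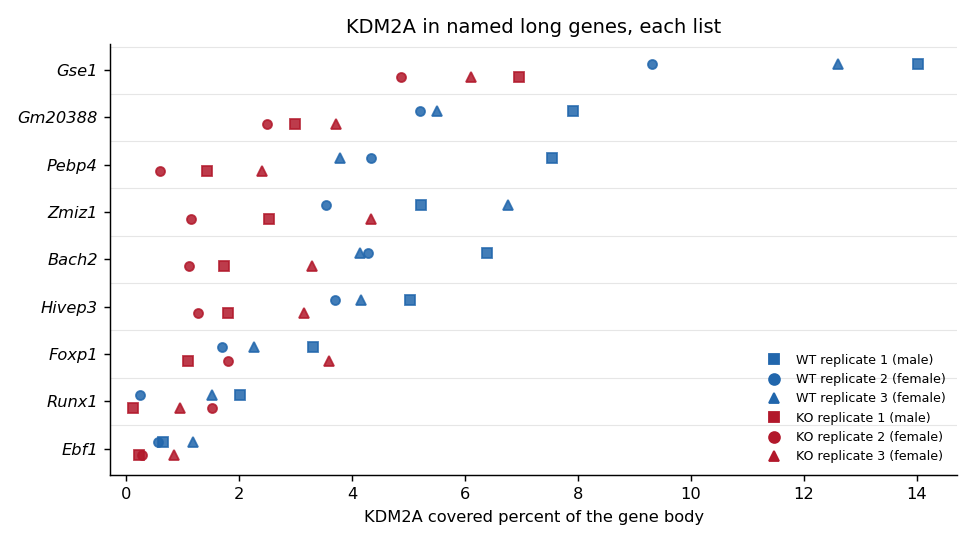
KDM2A covered percent of the gene body (x axis) in each of 6 lists for the named long genes with the most KDM2A, and for Foxp1, Runx1 and Ebf1 (y axis, ordered by the WT mean). Blue symbols are WT lists and red symbols KO lists; in Gse1 the WT lists reached 9.30 to 14.0% and the KO lists 4.86 to 6.96%.

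Bodies with more H3K36me2 also held more KDM2A (Spearman's rank correlation of 0.5002 over 998 members between the WT means, a description). Both were higher in bodies with more GC, with rank correlations of 0.36 for H3K36me2 and 0.382 for KDM2A. The KDM2A peaks of a list overlapped the H3K36me2 peaks of the list with the same genotype and number in 31.7, 31.6 and 29.6% of cases in WT and in 27.3, 7.48 and 10.0% in KO. By bases, 26.3, 27.7 and 25.5% of KDM2A peak sequence in WT and 17.9, 5.94 and 5.996% in KO lay under H3K36me2, which covered 3.40, 4.76 and 4.61% and 2.99, 1.42 and 1.21% of the bodies. In each list KDM2A peaks thus held more H3K36me2 than the bodies did on average, and the labels do not say whether a number marks the same animal for both antibodies.

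Long genes that act in B cells and other lymphocytes were among the most covered. All gene lists were chosen with earlier results of these data known, so their coverage is a description only. The lymphocyte list had 28 members, of which 27 had an H3K36me2 peak in all 6 lists. Its median was 13.0% in WT and 5.30% in KO, beside 0.376 and 0.168% over all long genes and 0.644 and 0.117% over all bodies longer than 10 kb. Every KO list lay below every WT list in 22 of the 28, and none was called by limma. This count stood beside 24.7% of all bodies and 269 of the 998 long genes, of which 312 had no peak. Among the 434 long genes with a peak in all 6 lists it was 250. Foxp1 (chr6:98925338-99522721), a transcription factor of B cell development, had 28.0, 30.6 and 29.7% in WT and 22.7, 14.5 and 11.7% in KO. Ppp3ca, the catalytic subunit of calcineurin, had 23.5, 27.0 and 27.9% in WT and 16.2, 17.2 and 8.66% in KO. Ebf1, a factor that specifies the B lineage, had 11.7, 16.5 and 12.9% in WT and 7.57, 2.65 and 2.20% in KO. Bach2 had 13.7, 15.3 and 14.1% in WT and 10.4, 3.07 and 3.14% in KO. In these 4 genes the genotypes did not overlap. Runx1, a haematopoietic transcription factor, had 7.21, 12.6 and 5.36% in WT and 7.20, 0.833 and 1.97% in KO, and overlapped. Themis, which acts in thymocyte selection, was at 0% in all 6 lists.

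Of the 14 chromatin regulators, 11 had a peak in all 6 lists, and the median was 15.9% in WT and 7.16% in KO. Separate genotypes, all lower in KO, were seen in 9 of the 14. This stood beside 24.7% of all bodies, 269 of the 998 long genes and 250 of the 434 long genes with a peak in all 6 lists. Rere, a nuclear receptor corepressor, had 24.7, 25.9 and 28.7% in WT and 19.0, 4.64 and 6.81% in KO. Mllt3, a subunit of the super elongation complex, had 17.8, 26.1 and 29.1% in WT and 17.5, 10.6 and 7.39% in KO. Trps1, a GATA-type repressor, had 11.7, 26.6 and 17.2% in WT and 13.8, 15.4 and 8.06% in KO, so its genotypes overlapped. Mecom, a zinc finger regulator of stem cells, was at 0% throughout.

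The synaptic and neuronal adhesion list was mostly bare. Of its 84 members 52 (61.9%) had no H3K36me2 peak in any list, against 31.3% of all long genes, and the median was 0% in both genotypes. Members of this list were also longer, with a median of 746 kb, and had a lower median GC of 39.2%, against 327 kb and 41.4% over all long genes. KDM2A peaks appeared in at least 1 list in 71 of the 84 and in all 6 lists in 9, beside 820 and 132 of the 998 long genes. Its most covered members act outside neurons too. Magi3, a membrane scaffold of cell junctions, had 15.5, 20.8 and 21.6% in WT and 13.3, 9.25 and 6.85% in KO, Cdh23, the tip-link cadherin of hair cells, had 10.3% ± 2.91 in WT and 3.98% ± 4.41 in KO, and Dlg1, a scaffold also of lymphocytes, had 6.95% ± 2.72 and 2.11% ± 0.903. Grm3, a glutamate receptor, was at 0%.

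**Figure D5:**
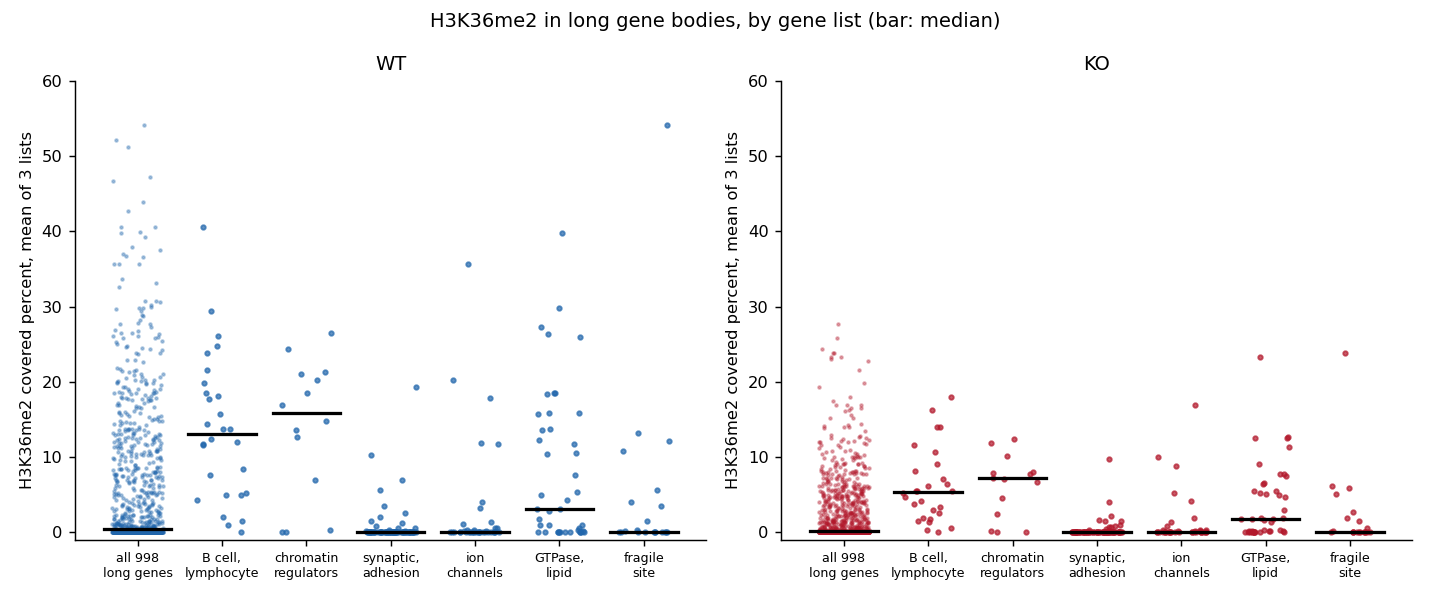
H3K36me2 covered percent of long gene bodies (y axis, mean of 3 lists) for all 998 members and for 6 lists of genes (x axis), in WT (left, blue) and KO (right, red). The gene lists were chosen with earlier results of these data known. Each point is a gene and the black bars are medians; the B cell and lymphocyte genes had medians of 13.0% in WT and 5.30% in KO, and the synaptic and adhesion genes 0% in both.

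Ion channel genes, 39 members, had a median of 0.00902% in WT and 0.00996% in KO, and 17 (43.6%, beside 31.3% of all long genes) had no peak in any list. The exceptions included Cacna1d, a voltage-gated calcium channel, with 30.9, 39.5 and 36.4% in WT and 29.0, 10.6 and 11.1% in KO. Cacna1e, of the same family, had 16.3, 24.0 and 20.4% in WT and 12.7, 6.57 and 7.23% in KO. Kcnq5, a potassium channel, had 12.5, 21.6 and 19.4% in WT and 8.23, 12.7 and 8.92% in KO, and overlapped. Gabrb2, a GABA receptor subunit, was at 0%. Regulators of small GTPases and lipid signalling, 43 members with 8 shared with the lymphocyte list, had a median of 3.15% in WT and 1.77% in KO, and 19 had separate genotypes, all lower in KO, among 36 with a peak, beside 39.2% of long genes with a peak and 24.7% of all bodies. Rasgef1b, a Ras guanine nucleotide exchange factor, had 36.9, 42.1 and 40.5% in WT and 32.3, 21.9 and 15.6% in KO. Prkce, a protein kinase C, had 23.6, 37.2 and 28.8% in WT and 20.9, 7.88 and 5.10% in KO. Arhgef3, a guanine nucleotide exchange factor, had 27.3% ± 3.11 and 12.7% ± 6.46, and Pde1c, a phosphodiesterase, was at 0%.

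Large genes known as common fragile sites, 21 members, split widely, and 7 of them were also in the synaptic and neuronal adhesion list and 1 each in the lymphocyte and chromatin lists. Rad51b led, Immp2l, of the mitochondrial inner membrane peptidase, had 6.93, 15.4 and 17.3% in WT and 6.86, 6.44 and 5.12% in KO, and Wwox, an oxidoreductase, had 12.3, 12.3 and 11.9% in WT and 11.7, 1.63 and 1.90% in KO. Against these, 8 of the 21 (38.1%, beside 31.3% of all long genes) had no peak in any list, Nbea, a vesicle trafficking protein, being one. The median was 0.0319% in WT and 0.0263% in KO. No gene of any list was called by limma for either antibody, and no list held a gene in which every KO list exceeded every WT list.

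The 45 members on chromosome X were nearly bare of H3K36me2, at 0.0305% in the male WT list, 0.253 and 0.231% in the female WT lists, 0.0427% in the male KO list and 0.101 and 0.0902% in the female KO lists, while autosomal members were at 1.27 to 4.98%. The X coverage of both male lists lay below that of all female lists.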

How the data were processed

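Per the labels and the study's methods, BWA placed the reads on GRCm38 and MACS2 then called broad peaks, 1 library at a time and with no pooling. The deposited lists gave each peak's start and end, its fold, a ratio over the local control, and −log10 of its q-value, which was at least 1.0 in every list. Read counts were not analysed here, so the depth of the libraries is unknown. The version of MACS2 is not given in the sources used here. The 6 inputs were not analysed on their own.

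The members and gene lists were chosen with earlier results of these data known. Genes, exons and TSS came from GENCODE M21. CpG islands were computed from GRCm38.p6 (over 200 bp, GC of at least 50%, observed over expected CpG over 0.6), which gave 15757. The covered percent of a body is its share of bases under peaks. Body unions were used for pooled values, and bases of long bodies were left out of the mid-length bodies. Lists were compared with two-sided exact permutation tests and, within lists, two-sided exact sign-flip tests, with Benjamini-Hochberg adjustment. Bodies of all genes longer than 10 kb were tested with limma 3.58.1 under R 4.3.3 (moderated by eBayes, trend allowed), adjusted over all bodies tested. Other values used Python 3.11.15, numpy 2.4.6, pandas 2.3.3, scipy 1.17.1 and matplotlib 3.10.9. It was tested on simulated data, drawn around the measured values, in which 200 bodies were lowered. On undivided values, over 8646 bodies of the H3K36me2 comparison, it found 0% of the bodies lowered by 1 or 2 log2 units and 55.5% of those lowered by 4, with 4 false calls. Over 8113 bodies of the KDM2A comparison it found 0% at any of these sizes. On values divided by the genome-wide percent it found 67% of those lowered by 4 for H3K36me2 and 21.5% for KDM2A, and 0% of the smaller changes.

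Named genes followed a rule: the 5 longest, the 8 (KDM2A: 6) with the highest WT mean, the 8 (KDM2A: 4) largest decreases and increases with separate genotypes, the 2 on either side of 200 kb, the 3 highest and 1 lowest of each list, and Foxp1, Bach2, Ebf1 and Runx1. Named sites were KDM2A intervals called in all 6 lists with the highest mean fold, 3 at and 3 away from islands, and the 3 widest H3K36me2 intervals. The comparisons of exons, TSS, islands, GC and X were added after the values had been seen. Alternatives were equal numbers of peaks, minimum fold and q, other body and length limits, chromosomes and overlapping members left out, other pseudocounts and filters, a replicate block, and each list left out in turn.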

Additional observations from a re-analysis of the deposited data

Results flagged for a closer look

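For 3 measures the male pair of lists moved one way and every pairing of a female KO with a female WT list the other way, and the difference was not tested. H3K36me2 peaks per Mb of long body were higher by 6.78 in KO in the male pair and lower in every female pairing, with a mean difference of -19.8. Long bodies without an H3K36me2 peak differed between KO and WT by -74 in the male pair and by 84 on average in the female lists. The KDM2A covered percent of long over mid-length bodies differed by -0.00024 in the male pair, close to no difference, and by 0.0264 in the female lists. Each genotype has 1 male list per antibody.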

How the results depend on the processing

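Across 14 results and 208 alternatives, 165 values kept their direction and their side of the threshold. The 3 calls over 6 lists among them were lost whenever a list was left out, since 5 lists allow no p below 0.0625 and 4 none below 0.125 (exact sign-flip test), while the direction held: long minus mid-length ran from -2.37 to -1.86 for H3K36me2 and from -0.496 to -0.388 for KDM2A, and the first 50 kb minus the rest from 1.43 to 1.77 for H3K36me2. The H3K36me2 covered percent of long bodies, KO minus WT, was -2.38 points and turned to 0.0873 with a fold of at least 3. With equal numbers of the strongest peaks it was -0.891, and with −log10 q of at least 2 -0.409. Relative to the genome it was -0.00789, and turned to 0.0657 with equal numbers of peaks, 0.00853 with a fold of at least 3, 0.0708 with −log10 q of at least 2 and 0.0119 for genes longer than 300 kb. With each list left out in turn it ran from -0.0313 to 0.00728. For KDM2A relative to the genome, -0.0274 turned to 0.0294 with equal numbers of peaks. Peaks per Mb turned to 0.144 for H3K36me2 and 0.141 for KDM2A with equal numbers of peaks. The KDM2A difference between the first 50 kb and the rest, 0.00163, turned to -0.00706 with equal numbers of peaks, -0.0162 with a fold of at least 3, -0.0189 with −log10 q of at least 2, -0.00545 for bodies from 10 kb, -0.0279 for genes longer than 300 kb and -0.000936 as a mean over genes. The values for a fold of at least 3, −log10 q of at least 2 and genes longer than 300 kb passed the threshold with this negative sign, and 0.0211 without sequence near a TSS and 0.0522 without overlapping members passed it with the positive sign (exact sign-flip test, p = 0.03125 each). With each list left out in turn it ran from -0.00257 to 0.00709, and without both replicate 1 lists it was 0.00760. The cause was not tested. Without KO replicate 1, limma called 209 of 645 long bodies for H3K36me2, beside 29.1% of all bodies, and 0 on values divided by the genome-wide percent. With it, and without any other single list, it called 0 on either kind of value. Leaving out Gm20388, chosen after the data were seen, gave -2.35 points for H3K36me2 and -0.0927 for KDM2A.

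Over the bodies, the deviations of same-numbered lists from their group means had correlations of -0.0339 to 0.0529 for H3K36me2 and 0.00605 to 0.0329 for KDM2A. On values divided by the genome-wide percent they were -0.0227 to 0.0751 and 0.00592 to 0.0315. A shift shared by all bodies of a list drops out of a correlation, so these values cannot tell whether the replicate numbers pair the lists. With the replicate number as a block, limma called 0 long bodies for either antibody (14 for H3K36me2 at an unadjusted p under 0.05), the paired difference of H3K36me2 was -2.38 points (exact sign-flip test, p = 0.25, the smallest that 3 pairs allow) and that of KDM2A -0.120 (exact sign-flip test, p = 0.25), and no call changed. Without read depths, fewer peaks in a list cannot be told apart from a shallower library.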
